A study of Rattus norvegicus with 6 samples.

Results

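The 50 genes described here encode the kinases that signal DNA damage, the proteins that mark broken chromatin and the enzymes of the main repair pathways. They were chosen by name, as well-known members of these pathways, with earlier results of these data known. All 50 were found among the 21026 gene symbols of the count table. Bone marrow mesenchymal stem cells, marrow stroma able to give rise to bone, cartilage and fat, were compared between aged and young rats by sequencing of polyadenylated RNA. Each age had 3 libraries, called biological replicates in the labels. The labels name the species, Rattus norvegicus, the cell type and the age class of each library, and give no age in months, strain, sex, passage or culture conditions. They do not say if the libraries of a group came from different animals, so p-values measure only how much these libraries vary, and some of that may be technical. The series title concerns bone healing in old age, mitophagy and aberrant endogenous DNA.

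Cells meet DNA damage with a small set of kinases and a larger set of repair enzymes. The kinase ATM answers to double-strand breaks, ATR to exposed single-stranded DNA and DNA-PK to broken ends held by the Ku proteins, and CHK1 and CHK2 relay the signal to the cell cycle. Breaks are mended either by homologous recombination, which copies a sister chromatid and works in S and G2 phase, or by end joining, which works throughout the cycle. Fanconi proteins undo crosslinks between strands, mismatch repair corrects copying errors, nucleotide excision repair removes bulky lesions, and base excision repair replaces single damaged bases. Marrow stromal cells divide in culture, and many recombination and Fanconi genes are known to be transcribed most in dividing cells.

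Levels are given as CPM, a gene's count relative to its library's total after scaling by TMM factors, which correct library totals for differences in composition. Log2 changes are aged over young, and a gene was called when its edgeR adjusted p was under 0.05. Means are given ± SD over the 3 libraries of a group, and errors of log2 changes are standard errors. All 50 genes had counts in all 6 libraries and passed the filter on low counts. Totals ran from 34638874 to 38921547 counts in aged libraries and from 40180480 to 42479626 in young ones. Of 14 stromal markers 4 were called higher and 8 lower, or 7 higher and 6 lower with library totals as the scale. Their summed level was 23610 to 23840 CPM in aged libraries and 43250 to 43740 CPM in young ones. Most of the sum of this list came from the collagen genes Col1a1 and Col1a2. These averaged 10930 and 6367 CPM in aged cells, and 19590 and 11650 CPM in young cells. The chemokine gene Cxcl12 had the largest change of that list, at 203 ± 1.44 CPM in aged cells and 3387 ± 165 CPM in young cells (16.7-fold lower, edgeR adjusted p = 6.5e-22). Nt5e, which encodes the surface marker CD73, was at 47.3 ± 0.561 CPM in aged cells and 10.5 ± 0.347 CPM in young cells (4.48-fold higher, edgeR adjusted p = 3.5e-15). Thy1 was at 1622 ± 13.7 CPM in aged cells and 4235 ± 9.52 CPM in young cells, whereas Lepr and Vcam1 were under 1 CPM in both groups. Of 8 blood and myeloid markers with a row of counts, 4 were tested, of which 1 was higher and 3 lower, and the 8 summed to 43.3 to 44.2 CPM in aged libraries and 92.9 to 96.0 CPM in young ones. Csf1r, the receptor of a macrophage growth factor, was at 21.8 ± 0.552 CPM in aged cells and 0.322 ± 0.182 CPM in young cells (67.5-fold higher, edgeR adjusted p = 1.9e-15). Lyz2, a lysozyme gene of myeloid cells, was at 0.173 ± 0.149 CPM in aged cells and 10.4 ± 1.33 CPM in young cells (57.8-fold lower, edgeR adjusted p = 1.4e-12), and Cd14 at 21 ± 0.60 CPM in aged cells and 80.7 ± 0.772 CPM in young cells (3.85-fold lower, edgeR adjusted p = 7.5e-16). Ptprc, the general marker of blood cells, had 1 count in all aged libraries together and 0 in the young ones, where 3 counts are 0.0688 to 0.0840 CPM in a library. The 6 endothelial markers summed to 0.359 to 0.678 CPM in aged libraries and 0.211 to 0.471 CPM in young ones. Summed adipocyte markers were at 41.2 to 44.4 CPM in aged libraries, against 652 to 699 CPM in young ones, and all 5 tested were called lower. Nearly all of the aged sum was Lpl, at 42.1 ± 1.49 CPM in aged cells and 290.5 ± 29.65 CPM in young cells. Fabp4 had 1, 2 and 0 counts in aged libraries and averaged 321 ± 10.2 CPM in young cells. The part of other cell types in the changes of the repair genes was not tested. In bulk RNA, fewer cells of a type and less RNA per cell cannot be told apart.

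In aged cells 25 of the 50 genes were called higher, 23 were called lower and 2 were not called (edgeR, Benjamini-Hochberg adjusted p under 0.05 over 14273 genes). Among all genes tested, 44.7% were called higher and 41.8% lower, 86.4% in all, so the share called among the repair genes is not by itself a result about them. At least 2-fold, 17 genes were higher and 8 lower, where 29.4% and 21.0% of all genes tested passed that rule. In 47 of the 50 genes all libraries of one age lay above all of the other, as in 87.5% of all genes tested. The median log2 change was 0.13 over the 50 genes and 0.05 over all genes. By pathway, all 3 Fanconi genes and 7 of 8 base excision genes fell (3 of the 8 with library totals as the scale), and all 3 mismatch repair genes and 4 of 5 damage kinases rose. Scaling by library totals alone moved the log2 change of all genes up by a median of 0.34, so that 62.3% of called genes were higher instead of 51.7%, and left 26 repair genes higher and 15 lower.

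**Figure D1:**
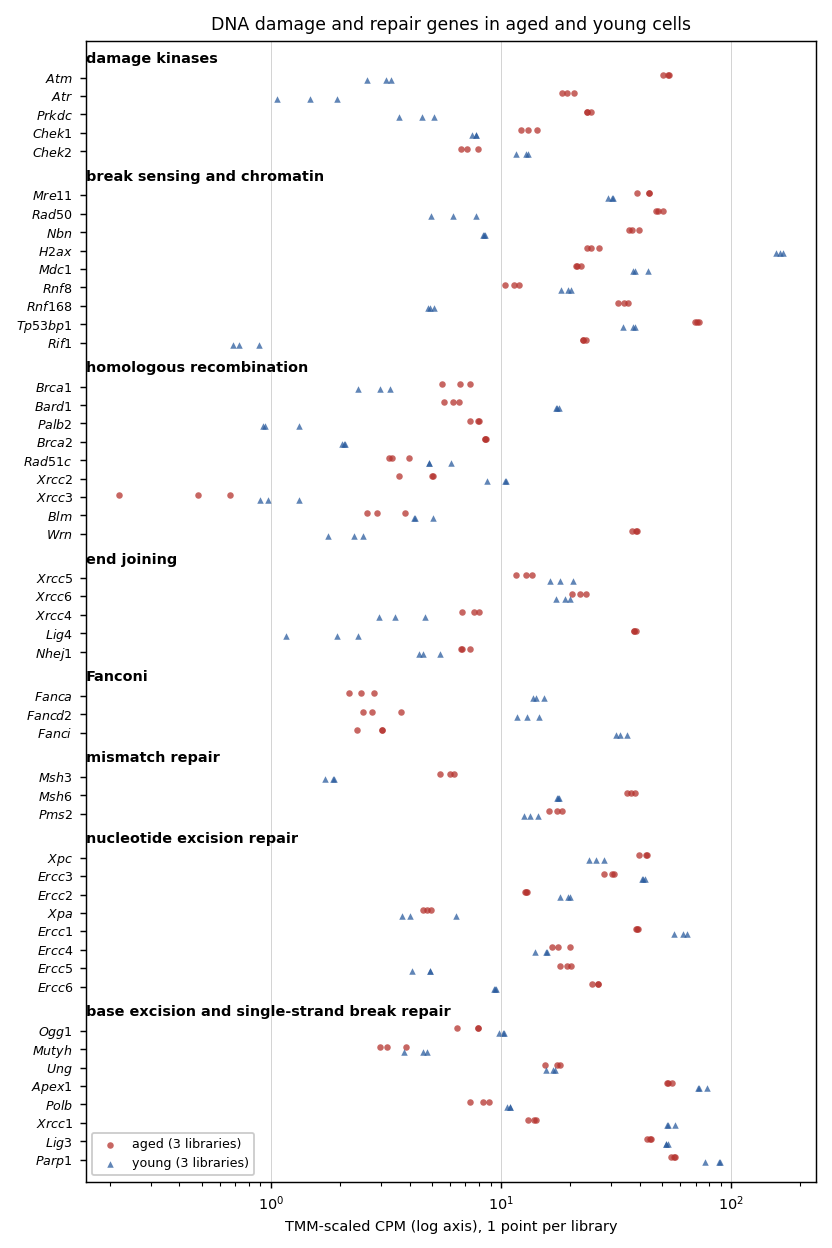
Level of each of the 50 genes in each library, as TMM-scaled CPM on a log axis, with circles for the 3 aged libraries and triangles for the 3 young ones. The groups lie apart for 47 genes and overlap for Xpa, Mutyh and Ung, and the widest spread within an age is that of Xrcc3.

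All 3 apical kinases of the damage response rose in aged cells. Atm, encoding the kinase of the double-strand break response, was at 53.6, 53.2 and 50.5 CPM in aged cells, against 2.6, 3.32 and 3.16 CPM in young cells. All aged libraries lay far above the young ones, and Atm rose 17.3-fold (log2 change 4.11 ± 0.09, SE, edgeR adjusted p = 3e-17). Atr, encoding the kinase that answers to stalled replication, stood at 20.8, 18.4 and 19.4 CPM in aged cells, against 1.94, 1.48 and 1.06 CPM in young cells, and it rose 13-fold (log2 change 3.71 ± 0.15, SE, edgeR adjusted p = 1.1e-13). Prkdc, which encodes the catalytic subunit of DNA-PK, had 24.7, 23.7 and 23.6 CPM in aged cells, against 4.54, 5.09 and 3.61 CPM in young cells. It rose 5.42-fold (log2 change 2.44 ± 0.11, SE, edgeR adjusted p = 4.9e-13), again with no overlap between the ages.

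The checkpoint kinases downstream changed less, and in opposite directions. Chek1, encoding the main target of ATR, was at 13.1, 12.2 and 14.3 CPM in aged cells, against 7.76, 7.76 and 7.44 CPM in young cells and rose 1.72-fold (log2 change 0.78 ± 0.10, SE, edgeR adjusted p = 1.2e-06). Chek2, encoding the main target of ATM, was at 7.14, 6.72 and 7.92 CPM in aged cells, against 11.6, 12.8 and 13.2 CPM in young cells and fell 1.73-fold (log2 change -0.79 ± 0.11, SE, edgeR adjusted p = 2e-06). Among 11 other tested genes of kinase signalling 9 rose and 2 fell, and their median log2 change was 1.24. The largest rise was that of Rad17, the loader of the checkpoint clamp, at 29.3 ± 0.306 CPM in aged cells and 5.78 ± 0.763 CPM in young cells (5.05-fold higher, edgeR adjusted p = 1.3e-13). The largest fall was that of Clspn, which encodes claspin, the adaptor through which ATR reaches CHK1, at 1.98 ± 0.557 CPM in aged cells and 9.35 ± 0.695 CPM in young cells (4.73-fold lower, edgeR adjusted p = 1.6e-09). Most other partners of ATR in the same list were called higher, namely Atrip, Topbp1, its activator, and the clamp subunits Rad1 and Hus1. Only Rad9a, also a subunit of the clamp, was called lower among them. Topbp1 was 4.83-fold higher (edgeR adjusted p = 2.4e-13) and Rad9a 2.17-fold lower (edgeR adjusted p = 1.1e-09). These partners are named after their values were seen.

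Genes of proteins that find and mark broken DNA fell into risers and fallers, 6 and 3 of 9. All 3 subunits of the MRN complex, which binds broken ends and activates ATM, rose. Rad50, its coiled-coil subunit, was at 48.2, 50.4 and 47.2 CPM in aged cells, against 6.15, 7.78 and 4.98 CPM in young cells, 7.69-fold higher (log2 change 2.94 ± 0.11, SE, edgeR adjusted p = 2.7e-14). Nbn, the subunit that recruits ATM, rose 4.48-fold and averaged 37.7 ± 1.91 CPM in aged cells and 8.41 ± 0.0997 CPM in young cells (edgeR adjusted p = 1.8e-14). Mre11, the nuclease subunit, rose only 1.41-fold, at 42.3 ± 2.91 CPM in aged cells and 30.0 ± 0.851 CPM in young cells (edgeR adjusted p = 1.7e-06).

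The transcript of the histone that carries the chromatin mark went the other way, and the mark itself was not measured. H2ax encodes the histone variant that ATM phosphorylates around a break, and it was at 24.6, 26.7 and 23.5 CPM in aged cells, against 163, 157 and 168 CPM in young cells. This was the largest fall of the chromatin group, 6.53-fold (log2 change -2.71 ± 0.05, SE, edgeR adjusted p = 8.5e-18). How reads shared with other histone H2A genes were counted is not stated in the labels. Mdc1, the adaptor that reads the phosphorylated histone, fell 1.84-fold (edgeR adjusted p = 2.2e-09), and Rnf8, the first ubiquitin ligase of the cascade, fell 1.72-fold (edgeR adjusted p = 1.9e-07).

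Genes of the later steps of that cascade rose. Rnf168, the ligase that follows RNF8, was at 35.7, 34.1 and 32.3 CPM in aged cells, against 5.1, 4.91 and 4.81 CPM in young cells, and rose 6.89-fold (edgeR adjusted p = 2.7e-15). Tp53bp1, encoding 53BP1, which binds the ubiquitinated chromatin and favours end joining, rose 1.95-fold to an average of 71.1 ± 1.57 CPM in aged cells, against 36.5 ± 2.36 CPM in young cells (edgeR adjusted p = 3e-11). Rif1, its effector against end resection, had the largest rise of all 50 genes, at 22.8, 22.8 and 23.5 CPM in aged cells, against 0.887, 0.686 and 0.728 CPM in young cells. Aged libraries held 940, 993 and 915 counts of Rif1 and young ones 32, 26 and 26, and the rise was 29.9-fold (log2 change 4.90 ± 0.13, SE, edgeR adjusted p = 3.3e-16). Of 13 other tested genes of break marking, 6 rose, 5 fell and 2 were not called. Subunits of shieldin, which acts below RIF1, lay at both ends of that list. Shld3 rose 13.4-fold to 2.84 ± 0.449 CPM in aged cells, against 0.212 ± 0.119 CPM in young cells (edgeR adjusted p = 3.8e-08). Shld1 fell 4.3-fold to 0.434 ± 0.219 CPM in aged cells, against 1.88 ± 0.167 CPM in young cells (edgeR adjusted p = 2.8e-05).

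Of 9 homologous recombination genes, 4 rose and 5 fell, or 4 and 2 with scaling by totals alone. Brca1, which encodes a ubiquitin ligase that starts recombination, was at 7.31, 5.55 and 6.64 CPM in aged cells, against 2.38, 2.98 and 3.27 CPM in young cells, and it rose 2.25-fold (log2 change 1.17 ± 0.16, SE, edgeR adjusted p = 3.6e-06). Bard1, encoding its obligate partner, was at 6.2, 6.58 and 5.66 CPM in aged cells, against 17.5, 17.9 and 17.4 CPM in young cells and fell 2.86-fold (log2 change -1.51 ± 0.10, SE, edgeR adjusted p = 7.3e-11). The transcripts of this pair of partners changed in opposite directions, each without overlap between the ages. Palb2, which links BRCA1 to BRCA2, rose 7.29-fold, averaging 7.78 ± 0.365 CPM in aged cells and 1.06 ± 0.223 CPM in young cells (edgeR adjusted p = 5.3e-11). Brca2, a tumour suppressor needed for strand exchange, was at 8.62, 8.55 and 8.51 CPM in aged cells, against 2.11, 2.03 and 2.07 CPM in young cells. It rose 4.13-fold (log2 change 2.05 ± 0.14, SE, edgeR adjusted p = 1.9e-10), with all aged libraries above the young ones.

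Xrcc2, Rad51c and Xrcc3, which assist strand invasion, all fell. Xrcc2 averaged 4.57 ± 0.832 CPM in aged cells and 9.9 ± 1.01 CPM in young cells and fell 2.17-fold (edgeR adjusted p = 1.1e-06). Rad51c averaged 3.53 ± 0.386 CPM in aged cells and 5.25 ± 0.706 CPM in young cells and fell 1.49-fold (edgeR adjusted p = 0.0028). Xrcc3 had the fewest counts of the 50 genes, 9, 21 and 26 counts in aged libraries and 35, 50 and 32 in young ones, and it fell 2.33-fold (log2 change -1.22 ± 0.41, SE, edgeR adjusted p = 0.011). This call was lost without aged replicate 1 (edgeR adjusted p = 0.054) and, together with that of Rad51c (edgeR adjusted p = 0.17), when libraries were scaled by their totals alone (Xrcc3, edgeR adjusted p = 0.055). The annotated gene Klc1, with 44562 counts in all libraries, overlaps Xrcc3 in RefSeq, and without a stated strand setting reads of both cannot be told apart.

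Among the RecQ helicases, which unwind joined DNA molecules, Wrn and Blm differed. Wrn, the gene of Werner syndrome, a disease with signs of early ageing, was at 37, 38.9 and 38.4 CPM in aged cells, against 1.77, 2.29 and 2.52 CPM in young cells. This 17.3-fold rise was the largest of the recombination group (log2 change 4.12 ± 0.11, SE, edgeR adjusted p = 2.3e-16). Blm, the gene of Bloom syndrome, fell 1.44-fold, at 3.11 ± 0.638 CPM in aged cells and 4.49 ± 0.498 CPM in young cells (edgeR adjusted p = 0.011), but the call was lost without aged replicate 3 (edgeR adjusted p = 0.056) and with scaling by totals alone (edgeR adjusted p = 0.32). Of 24 other tested recombination genes, 7 rose, 11 fell and 6 were not called, with a median log2 change of -0.31 that became 0.03, with 11 higher and 10 lower, under scaling by totals alone. Rbbp8, encoding the resection factor CtIP, rose most, at 43 ± 1.47 CPM in aged cells and 7.64 ± 1.15 CPM in young cells (5.62-fold, edgeR adjusted p = 2.9e-14). Rmi2, a subunit of the complex in which BLM works, fell most, with 1, 1 and 3 counts in aged libraries and 176, 241 and 260 in young ones. The other RecQ helicase genes of that list are named after their values were seen. Recql4 fell 5.21-fold (edgeR adjusted p = 1.2e-12), and Recql and Recql5 were not called (edgeR adjusted p = 0.36 and 0.67).

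End joining rests on the Ku ring, DNA-PK and a ligase complex, and the ligase side rose. Lig4, the ligase of this pathway, was at 38.6, 38 and 37.7 CPM in aged cells, against 2.38, 1.16 and 1.93 CPM in young cells. No young library came near the aged ones, and Lig4 rose 20.9-fold (log2 change 4.39 ± 0.14, SE, edgeR adjusted p = 3.2e-15). Its scaffold Xrcc4 averaged 7.45 ± 0.648 CPM in aged cells and 3.68 ± 0.891 CPM in young cells and rose 2.02-fold (edgeR adjusted p = 1.6e-05). Nhej1, encoding XLF, which aligns the ends, averaged 6.95 ± 0.341 CPM in aged cells and 4.79 ± 0.536 CPM in young cells and rose 1.45-fold (edgeR adjusted p = 0.0011).

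The Ku subunits themselves changed little and in opposite directions. Xrcc5, encoding Ku80, was at 13.6, 11.6 and 12.9 CPM in aged cells, against 16.2, 20.6 and 18.1 CPM in young cells, a fall of 1.44-fold (log2 change -0.53 ± 0.10, SE, edgeR adjusted p = 8.2e-05). Xrcc6, encoding Ku70, was at 22, 23.4 and 20.4 CPM in aged cells, against 17.4, 19 and 19.9 CPM in young cells, a rise of 1.17-fold (log2 change 0.22 ± 0.08, SE, edgeR adjusted p = 0.017). Neither difference was firm, since Xrcc5 was not called with scaling by totals alone (edgeR adjusted p = 0.078), and Xrcc6 was not called without aged replicate 2 (edgeR adjusted p = 0.099) or without young replicate 1 (edgeR adjusted p = 0.11). Of 9 other tested end joining genes, 4 rose and 5 fell, and their median log2 change was -0.30, or 0.04 with scaling by totals alone. Dclre1c, encoding the end-trimming nuclease Artemis, rose 14.8-fold to 27.5 ± 1.11 CPM in aged cells, against 1.86 ± 0.45 CPM in young cells (edgeR adjusted p = 5.7e-15).

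**Figure D2:**
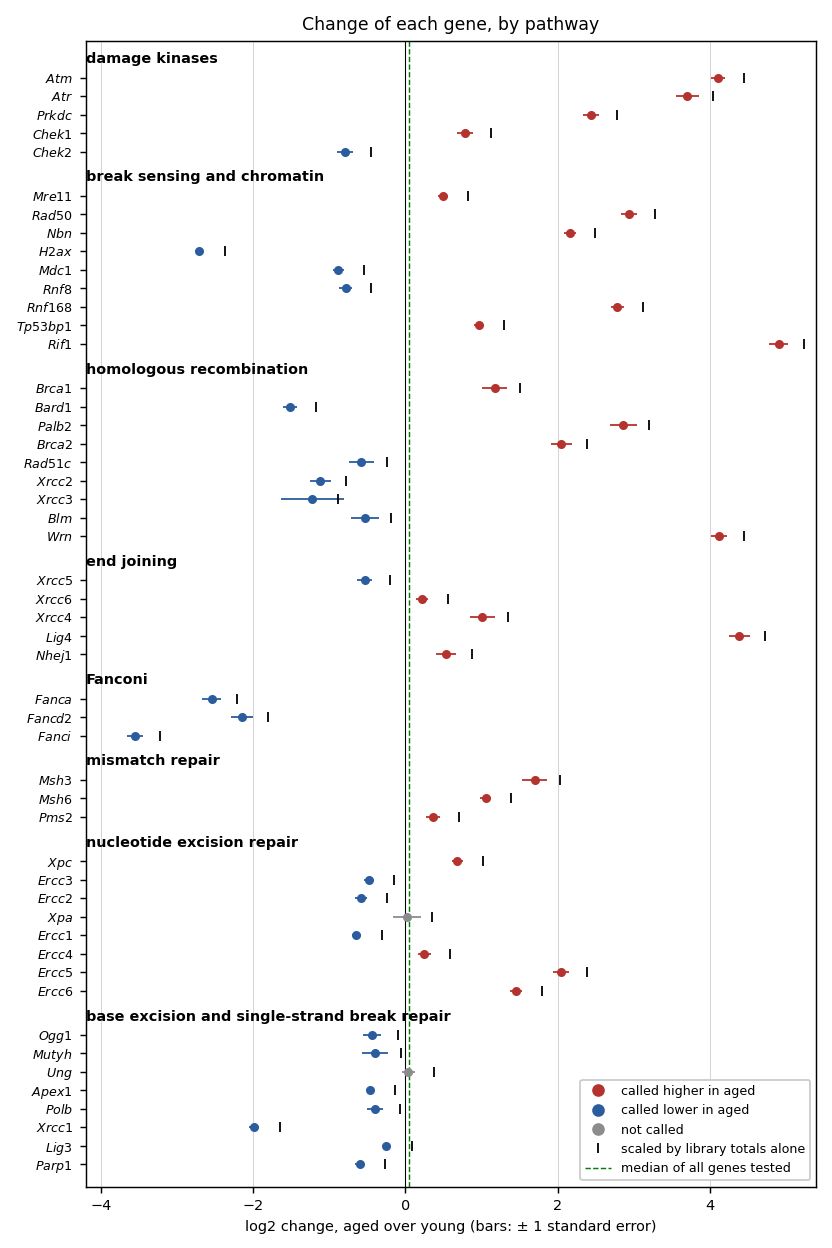
Log2 change of each gene, aged over young, with bars of 1 standard error, coloured by the edgeR call, and a vertical tick for the same gene when libraries are scaled by their totals alone. The ticks lie about 0.34 to the right of the points, which takes Lig3 across 0, and the 3 Fanconi genes and the apical kinases keep their side.

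The Fanconi genes fell together. The proteins FANCD2 and FANCI form a clamp on crosslinked DNA, and FANCA belongs to the complex that ubiquitinates it. Fanci was at 3.05, 2.36 and 3.05 CPM in aged cells, against 32.7, 35.1 and 31.5 CPM in young cells, a fall of 11.8-fold (log2 change -3.56 ± 0.10, SE, edgeR adjusted p = 1.6e-15) and the largest of the 50 genes. Fancd2 was at 2.74, 2.5 and 3.69 CPM in aged cells, against 13, 14.6 and 11.7 CPM in young cells, and fell 4.42-fold (log2 change -2.14 ± 0.15, SE, edgeR adjusted p = 2.2e-10). Fanca was at 2.47, 2.18 and 2.79 CPM in aged cells, against 14.2, 13.8 and 15.3 CPM in young cells, 5.84-fold lower (log2 change -2.54 ± 0.13, SE, edgeR adjusted p = 2e-12). All 3 genes fell under all alternative settings run, and no aged library reached the lowest young one.

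The rest of the Fanconi pathway was divided. Of 14 other tested genes, 6 rose, 6 fell and 2 were not called. Ube2t, the conjugating enzyme that works with the core complex, fell most, at 1.48 ± 0.40 CPM in aged cells and 12 ± 0.779 CPM in young cells (8.11-fold lower, edgeR adjusted p = 1.1e-11). Fancm, the translocase that brings that complex to DNA, rose most, at 33.3 ± 2.12 CPM in aged cells and 1.92 ± 0.508 CPM in young cells (17.4-fold higher, edgeR adjusted p = 2.8e-15). Usp1, which removes ubiquitin from the clamp, rose 2.6-fold (edgeR adjusted p = 7e-11), and is named after its values were seen. The median log2 change of these 14 genes was -0.08, or 0.26 with scaling by totals alone.

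Genes of the cell cycle were mostly lower in aged cells, as were the 3 Fanconi genes and unlike the recombination genes, which went both ways. Of 19 S phase genes, 13 fell and 4 rose, and their summed level was 370 to 375 CPM in aged libraries and 829 to 838 CPM in young ones. Of 19 genes of G2 and mitosis, 18 fell and 1 rose, and their summed level was 90.7 to 97.0 CPM in aged libraries and 912 to 952 CPM in young ones. E2f1, encoding a transcription factor of S phase genes, was 4.62-fold lower at 8.31 ± 0.275 CPM in aged cells and 38.4 ± 2.14 CPM in young cells. The genes that rose were Mcm4, Pcna, Pola1 and Ccne2 of S phase and Cenpe of mitosis. Pcna was 1.85-fold higher (edgeR adjusted p = 2.1e-10), and Mki67 only 1.22-fold lower (edgeR adjusted p = 0.011). With scaling by totals alone, 6 S phase genes were higher and 12 lower, and 1 gene of G2 and mitosis was higher and 16 lower. None of these cell cycle genes was at 0 in all libraries of a group. The part of the cell cycle in the changes of the repair genes was not tested.

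The promoters of the 3 Fanconi genes are shown because they fell together, in full windows of 250 bases before and 50 after the annotated start. Sequences are those of RefSeq on build GRCr8, on the strand of the gene, 5′ to 3′, with 2 kinds of motif in capitals. The first is the E2F type, read as TTTGGCGC, TTTCCCGC or TTTGCCGC on either strand, and the second is the CCAAT box, on either strand. The Fanca window is chr19:68270970-68271269 on the minus strand, that of Fancd2 chr4:148234458-148234757 on the plus strand, and that of Fanci chr1:142736403-142736702 on the plus strand.
Fanca: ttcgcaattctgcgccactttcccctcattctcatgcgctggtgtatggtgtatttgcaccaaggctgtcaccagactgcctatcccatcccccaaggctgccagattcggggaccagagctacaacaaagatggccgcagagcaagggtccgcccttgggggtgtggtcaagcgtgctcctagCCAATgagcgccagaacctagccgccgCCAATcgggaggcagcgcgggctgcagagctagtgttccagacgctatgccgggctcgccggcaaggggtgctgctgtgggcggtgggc
Fancd2: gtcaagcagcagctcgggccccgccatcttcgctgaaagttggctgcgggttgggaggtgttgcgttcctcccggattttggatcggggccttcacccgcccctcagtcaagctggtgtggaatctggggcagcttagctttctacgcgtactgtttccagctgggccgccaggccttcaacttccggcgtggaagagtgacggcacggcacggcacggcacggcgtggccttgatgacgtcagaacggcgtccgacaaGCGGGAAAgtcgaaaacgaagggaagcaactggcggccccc
Fanci: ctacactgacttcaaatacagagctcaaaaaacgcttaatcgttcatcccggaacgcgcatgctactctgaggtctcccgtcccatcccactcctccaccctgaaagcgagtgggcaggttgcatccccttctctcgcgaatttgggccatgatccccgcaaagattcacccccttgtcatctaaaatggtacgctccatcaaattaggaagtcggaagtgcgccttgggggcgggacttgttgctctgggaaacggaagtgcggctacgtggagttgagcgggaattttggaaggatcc

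The 3 windows do not share these motifs. That of Fanca held 2 CCAAT boxes, that of Fancd2 an E2F-type match that begins at base 10 after the start, and that of Fanci neither. Of the 50 genes, 39 had a single window in the table. An E2F-type match was found in 6 of these 39 windows, 15.4%, against 3.46% of 10280 windows of genes tested and 1.97% of all 24206 windows. The CCAAT box was found in 43.6% of the 39 and 37.9% of the 10280. The 6 E2F-type windows belonged to genes that rose, fell or were not called, so the stretch around each other match is given next to its change. Atm (chr8:62828845-62828879, minus strand), Chek1 (chr8:44629848-44629887, minus strand) and Msh6 (chr6:12333487-12333526, minus strand) rose, Bard1 (chr9:80143937-80143976, minus strand) fell, and Ung (chr12:48154042-48154081, minus strand) was not called.
Atm: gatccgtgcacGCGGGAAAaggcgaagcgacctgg
Chek1: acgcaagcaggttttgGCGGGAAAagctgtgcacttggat
Msh6: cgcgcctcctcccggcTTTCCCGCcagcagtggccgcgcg
Bard1: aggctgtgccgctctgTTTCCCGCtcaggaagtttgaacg
Ung: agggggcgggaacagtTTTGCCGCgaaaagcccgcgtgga

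Counted from the annotated start, the matches begin at -28 in Chek1, -5 in Msh6, -20 in Ung, -205 in Bard1 and -239 in Atm. A match describes these letters and is no evidence of binding. By the same search, 7 of 13 S phase windows and 0 of 16 windows of G2 and mitosis genes held an E2F-type match. GC content of the windows had a median of 60.0% in the 39 genes and 60.7% in the 10280, and its rank correlation with the log2 change was 0.07 across the 39 genes and -0.04 across the 10280, points that share the same 6 libraries.

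Head-to-head starts, within 1000 bases and on the other strand, were searched only among genes with a single promoter window, 39 of the 50. Of these, 11 faced another protein-coding gene, and the neighbour was tested for 10. In 7 of these 10 pairs both genes were called in the same direction, in 2 they were called in opposite directions, and in 1 the neighbour was not called. Among all genes tested 86.4% were called, 44.7% higher and 41.8% lower, so many unrelated pairs also share a direction. The share over all head-to-head pairs was not counted. Atm shares such a start region with Npat, the coactivator of histone genes, and Npat rose too (log2 change 4.88, edgeR adjusted p = 7.3e-18, beside 4.11 for Atm). Mre11 faces Ankrd49, which also overlaps it in RefSeq, with log2 changes of 0.49 for Mre11 and 2.28 for its neighbour, both called. The other pairs called in the same direction were Brca1 and Nbr1 (log2 changes 1.17 and 0.38), Xrcc3 and Zfyve21 (-1.22 and -1.70), Xrcc4 and Tmem167a (1.01 and 0.37), Xrcc6 and Desi1 (0.22 and 0.17), and Apex1 and Osgep (-0.47 and -1.38). The remaining 3 pairs did not move together. Palb2 rose (log2 change 2.87) and Dctn5, across from it, was not called (-0.03, edgeR adjusted p = 0.59). Xpc rose (0.68) while Lsm3, an RNA-processing gene, fell (-0.87, edgeR adjusted p = 5e-07), and Fancd2 fell (-2.14) while Emc3 rose slightly (0.12, edgeR adjusted p = 0.0049).

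Mismatch repair genes rose throughout. Msh6, a subunit of the complex that reads single mismatches, was at 35.2, 36.6 and 38.2 CPM in aged cells and 17.6, 17.6 and 17.8 CPM in young ones, 2.08-fold higher (log2 change 1.05 ± 0.07, SE, edgeR adjusted p = 7.5e-11). Msh3, its counterpart for larger loops, was at 5.45, 6.24 and 6.0 CPM in aged cells, against 1.86, 1.71 and 1.88 CPM in young cells, and rose 3.24-fold (log2 change 1.70 ± 0.16, SE, edgeR adjusted p = 2.7e-08). Pms2, the endonuclease subunit that cuts next to a mismatch, rose less, 1.29-fold, at 17.4 ± 1.17 CPM in aged cells and 13.5 ± 0.963 CPM in young cells (edgeR adjusted p = 0.001). The other 4 tested genes rose as well, with Pms1 rising most (11-fold, at 14.1 ± 2.14 CPM in aged cells and 1.27 ± 0.484 CPM in young cells, edgeR adjusted p = 1.1e-11). The annotated gene Fbxo11 overlaps Msh6 on the other strand, and it rose by 2.12 on the log2 scale.

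In nucleotide excision repair 4 of 8 genes rose, 3 fell and 1 was not called. Xpc, the sensor of distorted DNA, was at 43.1, 42.6 and 39.6 CPM in aged cells, against 28.1, 24.1 and 25.9 CPM in young cells, and it rose 1.61-fold (log2 change 0.68 ± 0.07, SE, edgeR adjusted p = 5e-08). The helicases of TFIIH, which open the helix, both fell, Ercc3 1.39-fold (edgeR adjusted p = 1.2e-06) and Ercc2 1.5-fold (edgeR adjusted p = 3.3e-06). Ercc3 averaged 29.8 ± 1.6 CPM in aged cells and 41.5 ± 0.705 CPM in young cells, and Ercc2 12.8 ± 0.161 CPM in aged cells and 19.2 ± 1.04 CPM in young cells. Xpa, which verifies the lesion, was at 4.58, 4.75 and 4.97 CPM in aged cells, against 3.71, 4.04 and 6.35 CPM in young cells. Its aged libraries lay inside the range of the young ones, and it was not called (log2 change 0.02 ± 0.18, SE, edgeR adjusted p = 0.92).

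The nucleases that cut out the lesion changed unequally. Ercc5, encoding XPG, which cuts on the 3′ side, was at 18, 19.4 and 20.1 CPM in aged cells, against 4.1, 4.91 and 4.9 CPM in young cells, and had the largest rise of the pathway, 4.13-fold (log2 change 2.05 ± 0.10, SE, edgeR adjusted p = 3.4e-12). Ercc1, a subunit of the nuclease that cuts on the 5′ side, was at 38.4, 39.4 and 38.9 CPM in aged cells, against 56.6, 61.5 and 64 CPM in young cells, and had its largest fall, 1.56-fold (log2 change -0.64 ± 0.06, SE, edgeR adjusted p = 1e-08). Ercc4, encoding XPF, the catalytic partner of ERCC1, rose 1.19-fold, at 18.1 ± 1.67 CPM in aged cells and 15.2 ± 1.03 CPM in young cells (edgeR adjusted p = 0.015), a call lost without aged replicate 2 (edgeR adjusted p = 0.11) or without young replicate 3 (edgeR adjusted p = 0.091). The annotated gene Polr1g overlaps Ercc1 on the other strand and rose by 0.59 on the log2 scale. Ercc6, encoding CSB, which couples repair to stalled transcription, averaged 25.8 ± 0.926 CPM in aged cells and 9.41 ± 0.134 CPM in young cells and rose 2.74-fold (edgeR adjusted p = 8.4e-12).

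Of 16 other tested nucleotide excision genes, 5 rose, 5 fell and 6 were not called. Ccnh, the cyclin of TFIIH, rose most, at 32.8 ± 0.74 CPM in aged cells and 9.1 ± 1.65 CPM in young cells (3.6-fold, edgeR adjusted p = 7.5e-12). Ddb1, which helps find ultraviolet damage and also serves a ubiquitin ligase, fell most, at 498 ± 6.17 CPM in aged cells and 1085 ± 31.2 CPM in young cells (2.18-fold, edgeR adjusted p = 5.3e-16). With scaling by totals alone the split of these 16 genes was 9 higher and 3 lower.

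Genes of base excision and single-strand break repair fell mostly by little, and fewer were lower under scaling by totals alone. Of 8 genes 7 fell and 1 was not called, and 6 of the 7 falls were under 2-fold. Xrcc1, the scaffold of single-strand break repair, was the exception, at 13.9, 13 and 14.1 CPM in aged cells, against 53.2, 56.8 and 52.4 CPM in young cells, and fell 3.95-fold (log2 change -1.98 ± 0.07, SE, edgeR adjusted p = 9.3e-15). Parp1, the enzyme that senses such breaks, was at 56.5, 56.9 and 54.8 CPM in aged cells, against 88.9, 77.1 and 89.2 CPM in young cells, 1.52-fold lower (log2 change -0.60 ± 0.06, SE, edgeR adjusted p = 2.4e-08). Lig3, the ligase bound to XRCC1, fell 1.19-fold, at 44.2 ± 0.787 CPM in aged cells and 52.6 ± 0.536 CPM in young cells (edgeR adjusted p = 0.00023).

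The enzymes that remove and replace damaged bases showed the same small shifts. Apex1, which cuts at the site left by a removed base, averaged 53.6 ± 1.35 CPM in aged cells and 74.2 ± 3.61 CPM in young cells and fell 1.38-fold (edgeR adjusted p = 1.7e-07). Polb, the gap-filling polymerase, averaged 8.19 ± 0.801 CPM in aged cells and 10.8 ± 0.182 CPM in young cells (1.32-fold lower, edgeR adjusted p = 0.0019), and Ogg1, which removes oxidized guanine, averaged 7.44 ± 0.885 CPM in aged cells and 10.1 ± 0.268 CPM in young cells (1.35-fold lower, edgeR adjusted p = 0.0017). Mutyh, which removes adenine opposite oxidized guanine, was at 3.85, 2.98 and 3.18 CPM in aged cells, against 3.77, 4.59 and 4.79 CPM in young cells. Its groups overlapped, and the call was a weak one (1.31-fold lower, edgeR adjusted p = 0.039). It was lost without aged replicate 2 or 3 and without young replicate 2 or 3, with edgeR adjusted p = 0.14, 0.094, 0.075 and 0.10 in turn. Ung, which removes uracil, was at 17.4, 18.1 and 15.6 CPM in aged cells, against 17.2, 15.7 and 16.8 CPM in young cells, the groups overlapped and it was not called (log2 change 0.04 ± 0.08, SE, edgeR adjusted p = 0.67).

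The number of calls in this pathway depended on the scaling, and the median log2 change was -0.42, or -0.08 with library totals alone. With library totals alone 3 of the 8 genes were lower, Apex1, Parp1 and Xrcc1, and 1 was higher, Ung (edgeR adjusted p = 0.00051), while Lig3 had a log2 change of 0.08 and was not called (edgeR adjusted p = 0.13). Of 13 other tested genes of base excision, 7 fell, 3 rose and 3 were not called. Neil1, a glycosylase for oxidized bases, fell most, at 4.83 ± 0.46 CPM in aged cells and 19.5 ± 2.1 CPM in young cells (4.02-fold, edgeR adjusted p = 1.1e-11). Mbd4, which removes thymine at mismatched CpG sites, rose most, at 5.66 ± 0.933 CPM in aged cells and 1.17 ± 0.607 CPM in young cells (4.79-fold, edgeR adjusted p = 2.9e-07). The median log2 change of the 13 was -0.93, or -0.60 with scaling by totals alone.

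**Figure D3:**
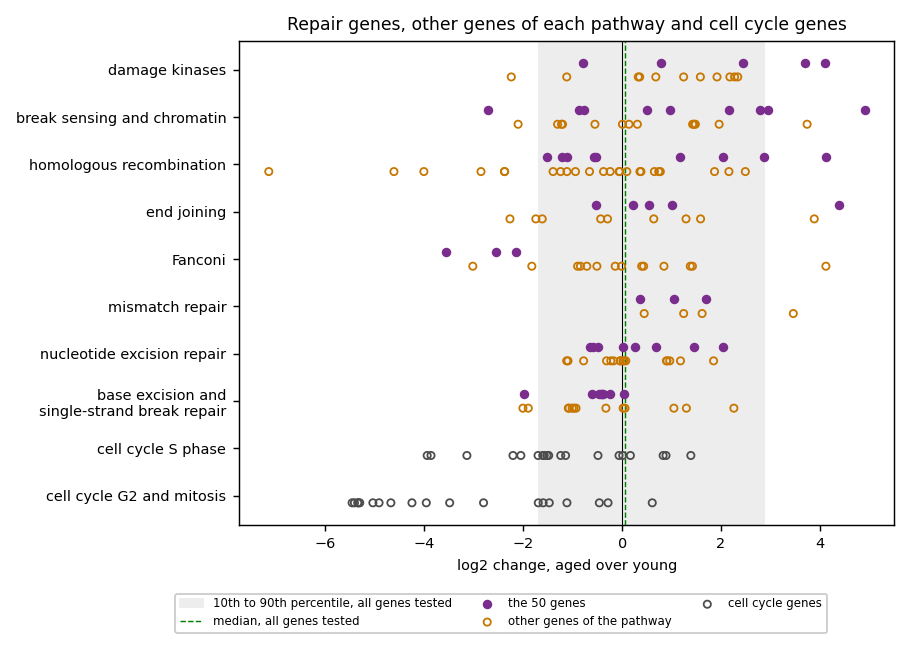
Log2 change, aged over young, of the 50 genes (filled), the other tested genes of each pathway (open) and cell cycle genes (grey, bottom rows), over a band from the 10th to the 90th percentile of all genes tested, -1.68 to 2.86. The 3 Fanconi genes lie left of the band. Atm, Atr, Rad50, Rif1, Wrn and Lig4 lie right of it, and Palb2 lies just past its right edge. Among the 8 base excision genes of the 50 (filled), Xrcc1 alone lies outside the band.

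Set beside the spread of all genes, 12 of the 50 repair genes (24.0%) lay outside the 10th to 90th percentile, where 20% of all genes lie by construction. The central 80% of all genes tested had log2 changes between -1.68 and 2.86. Below that band lay H2ax, Fanca, Fancd2, Fanci and Xrcc1, and above it lay Atm, Atr, Rad50, Rif1, Palb2, Wrn and Lig4. Palb2 lay on its edge, with a log2 change of 2.865 ± 0.177 (SE) against a 90th percentile of 2.863. Over all 104 other tested genes of the same pathways, 44 rose, 41 fell and 19 were not called, and 57 were higher and 33 lower with scaling by totals alone. The summed level of the 50 genes was 1042 to 1078 CPM in aged libraries and 1008 to 1026 CPM in young ones. Within that sum the damage kinases took 114 to 119 CPM in aged libraries, against 28.4 to 30.4 CPM in young ones, and the Fanconi genes 7.04 to 9.54 CPM in aged libraries, against 58.5 to 63.6 CPM in young ones.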

How the data were processed

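RNA of 3 aged and 3 young libraries was sequenced, and the authors deposited raw counts of reads for each gene symbol in 1 table. The submitters' processing notes name fastp, HISAT2 and HTSeq, and the genome build, annotation and strand setting are not stated in the labels or the table. Sequencing was of polyadenylated RNA, per the labels' protocols. Counts as deposited were analysed with edgeR 4.0.16 in R 4.3.3 by the quasi-likelihood F test with group as the only term, after filterByExpr (minimum count 10) and TMM scaling. Adjustment was by Benjamini-Hochberg, over all 14273 genes that passed the filter. Alternatives were scaling by library totals, DESeq2 1.42.0 and its size factors, limma 3.58.1 (voom), other filters, a threshold of 0.01, the replicate number as a block and leaving out each library. The test was run on simulated counts with 200 of 14273 genes changed. It recovered 58% of 1.25-fold changes, 80% of 1.5-fold changes and 100% of 2-fold and 4-fold changes, and 5.59% of its calls were false. As 12339 genes were called in the real data, the simulation does not cover a change of that extent.

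The 50 genes and the other lists were chosen with earlier results of these data known. All 50 are named, and values of all libraries are given for the 5 damage kinases, the largest rise and fall of each other pathway, genes not called and genes with a defining role. Of the other genes of each pathway the largest rise and fall are named, except 1 that is not reported here. Promoters and gene neighbours come from RefSeq tables of build GRCr8, in which 19087 of the 21026 symbols matched, and no coordinates were joined to the counts.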

Additional observations from a re-analysis of the deposited data

How the results depend on the processing

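Of the 50 genes, 48 were called with DESeq2 size factors, limma-voom and no low-count filter, 47 with DESeq2, 46 with at least 50 counts in 3 libraries (which dropped Xrcc3), and 43 at an adjusted p under 0.01. Scaling by library totals alone left 15 called lower and turned Lig3 to a log2 change of 0.084, and of the 48 genes 40 remained called. The change of scaling moved the log2 change of all genes up by a median of 0.34. Which scaling lies closer to the RNA of the cells was not tested. Leaving out 1 library left 45 to 47 of the 48 called. The log2 change of Ung, not called, then ran between -0.0082 and 0.097, and that of Xpa between -0.14 and 0.28. Same-numbered libraries did not deviate together (correlations -0.013, 0.0080 and 0.026), so the numbers were not taken as pairs. With the replicate number as a block 47 genes were called, without Mutyh (log2 change -0.39, edgeR adjusted p = 0.065). Mutyh was also not called by DESeq2 (adjusted p = 0.052) or the stricter count filter (edgeR adjusted p = 0.069). A check against coding length was planned and not run, since no length table was used here. With 3 libraries a group, an exact permutation test of a single gene cannot go below p = 0.10.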

Other observations

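In RefSeq, 15 of the 50 genes overlap another protein-coding gene of the count table, so that reads of an overlap may be assigned to either or dropped, depending on a counting setting that the labels do not state. Fanci fell (log2 change -3.56), and Polg, the mitochondrial DNA polymerase gene that overlaps it, rose (0.81, edgeR adjusted p = 8.9e-09). Xpa was not called, and Ncbp1, which encodes a cap-binding protein and overlaps it, rose (1.37, edgeR adjusted p = 2e-13). Tp53bp1 held 12817 counts over all libraries, and the overlapping Map1a, encoding a microtubule protein, held 59631. Their part in the values of the repair genes was not tested.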
